A study of Homo sapiens with 14 samples.

Results

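The genes described here are 40 NF-kB and secreted inflammatory genes. They include 9 chemokines, 8 cytokines, 4 receptors, 2 adhesion molecules and the 5 NF-kB subunits. A further 8 are inhibitors, feedback genes, targets or regulators of NF-kB, and 4 are prostaglandin or acute phase genes. The 40 genes were chosen by symbol from a table of 27142 genes, and all were in it. RNA-seq counts came from IMR90, a wild-type human lung fibroblast line grown in serum. The treated cells had received ddC (2'3'-dideoxycytidine) at 20 uM, a nucleoside analog that ends the growing DNA chain and blocks the mitochondrial DNA polymerase, for 24, 48, 72 or 96 h, with 3 libraries per time. The 2 untreated libraries are labelled as water vehicle at 4 days, whereas the design text lists them at 0 h. The study asked which transcripts change as mitochondrial DNA is depleted, and its design text calls the libraries biological replicates. All come from 1 cell line, so the p-values below measure the spread between cultures of that line.

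NF-kB is a family of dimeric transcription factors held in the cytoplasm by inhibitor proteins of the IkB family. Signals from cytokine receptors, pattern recognition receptors or damaged DNA activate kinases that mark the inhibitors for destruction, and the freed dimers bind kB sites and switch on chemokines, cytokines, adhesion molecules and their own inhibitors. In fibroblasts this programme recruits leukocytes and makes up much of the senescence-associated secretory phenotype.

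The promoters of the members were read for kB motifs. RefSeq windows on GRCh38.p14, from 250 bases before to 50 bases after a start, were available for 32 of the 40 members. The 10-letter kB motif, GGG followed by any 2 bases and TTTCC, was searched on both strands and was in 14 of the 32 members and in 2.33% of all 27305 gene symbols with a window. The shorter palindrome GGAANTTCC was in 11 of the 32 and in 1.16% of gene symbols, and it lies inside any GGGAATTTCC. At least 1 of the motifs was present in 16 of the 32 members, compared with 3.29% of gene symbols. The members were chosen as NF-kB and inflammatory genes, so these shares describe the choice of genes and test nothing. The AP-1 motif TGANTCA was in 6 of the 32 (CCL7, CXCL8, IL11, IL1A, PLAUR and TNFAIP6) and in 9.37% of gene symbols. A match describes the letters and not a bound site. The stretches below show the kB letters in capitals for 3 genes that rose at 96 h, for the feedback inhibitor NFKBIA, which was not called, and for 6 chemokines that were low or near silent.
ICAM1, chr19:10270910-10270966, plus strand: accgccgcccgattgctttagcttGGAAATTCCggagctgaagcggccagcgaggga
IL6, chr7:22727103-22727160, plus strand: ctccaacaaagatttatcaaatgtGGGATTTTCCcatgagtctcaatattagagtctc
TNFAIP3, chr6:137867168-137867237, plus strand: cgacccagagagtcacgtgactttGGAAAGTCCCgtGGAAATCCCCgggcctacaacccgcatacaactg
NFKBIA, chr14:35404797-35404854, minus strand: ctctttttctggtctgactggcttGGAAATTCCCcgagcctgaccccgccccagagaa
CXCL8, chr4:73740454-73740510, plus strand: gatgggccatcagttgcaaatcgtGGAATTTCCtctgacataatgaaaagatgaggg
CXCL1, chr4:73869290-73869347, plus strand: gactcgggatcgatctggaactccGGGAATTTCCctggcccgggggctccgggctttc
CXCL2, chr4:74099240-74099297, minus strand: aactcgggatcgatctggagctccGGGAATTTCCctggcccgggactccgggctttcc
CXCL3, chr4:74038735-74038792, minus strand: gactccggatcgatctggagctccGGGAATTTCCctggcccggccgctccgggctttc
CXCL5, chr4:73998735-73998792, minus strand: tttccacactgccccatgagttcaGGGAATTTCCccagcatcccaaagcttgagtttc
CXCL6, chr4:73836564-73836621, plus strand: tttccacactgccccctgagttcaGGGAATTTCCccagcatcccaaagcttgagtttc
CXCL1, CXCL2, CXCL3, CXCL5 and CXCL6 share the same letters GGGAATTTCC, within 115 bases upstream of their starts. ICAM1 has the palindrome alone, IL6 has GGGATTTTCC, and TNFAIP3 has GGAAAGTCCC and GGAAATCCCC side by side. No match to either kB motif was in the windows of CXCL12, IL11, IL1B or PTGS2, which also changed in a comparison below. A window without a match can still hold a kB site of other letters, and bases outside the windows were not searched. CCL2 and TNFRSF11B had no window in the table.

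The members covered a wide range of levels. Scaled by length, PLAUR, the receptor of the protease urokinase, was the most abundant at 95.2 reads per kb and 1000000 counted reads (RPKM, mean of 14 libraries). CXCL12 followed at 77.9, IER3 at 76.4 and IL6ST at 66.4 RPKM. The next in this order were TNFRSF11B at 53.8, BIRC2 at 46.8, IL11 at 36.0, RELA at 35.1, NFKBIA at 30.8, LIF at 23.9, CCL2 at 17.1 and CSF1 at 14.7. In the order of all 40, the libraries overlapped in 37 of 39 neighbouring pairs, and stood apart only between IL6ST and TNFRSF11B and between NFKBIA and LIF. A total of 9 members fell below the count filter and were not tested: CCL7, CXCL1, CXCL2, CXCL3, CXCL5, CXCL6, IL33, C3 and SAA1. Their counts summed over all 14 libraries were 3, 69, 51, 54, 53, 11, 17, 41 and 1 in that order. CXCL1, CXCL2 and CXCL3 are near-identical copies whose reads can be split between them, and none of them exceeded 1 count per 1000000 counts (CPM) in any library. The other 31 members were tested.

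**Figure D1:**
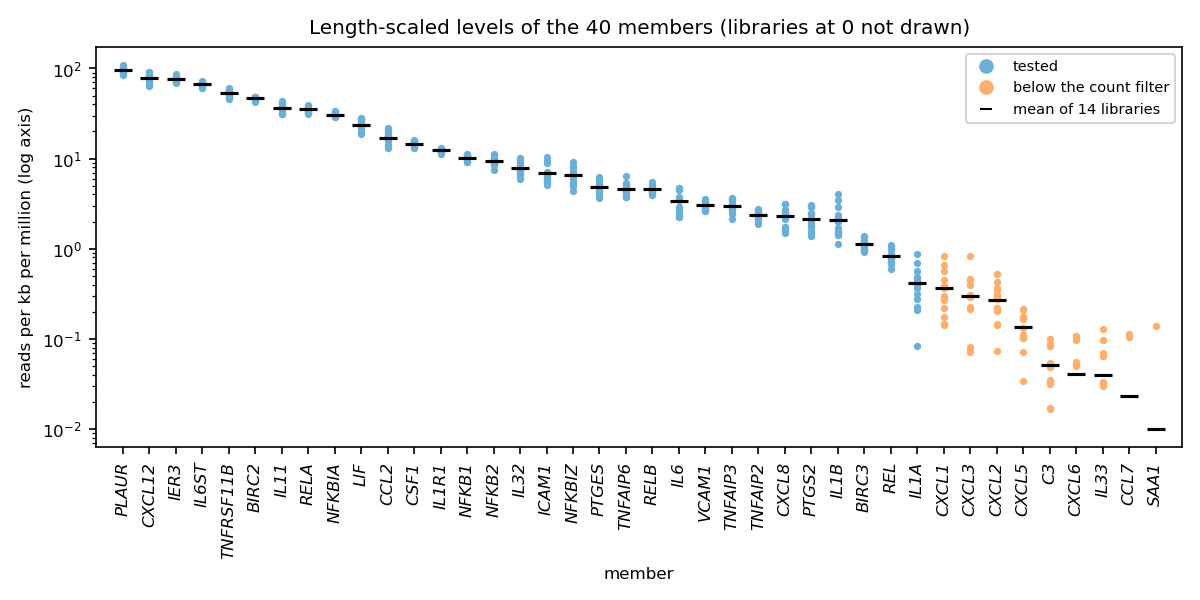
RPKM (log axis) of each of the 40 members in 14 libraries, with the mean as a bar and libraries at 0 left out. PLAUR lies highest at a mean of 95.2, and the 9 members below the count filter (orange) all have a mean under that of every tested member.

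Library totals ran from 9398703 to 12147402 counts, and the fibroblast markers were all expressed, with COL1A1 at 15690 CPM or more in every library. Summed epithelial markers were 60.05 and 60.09 CPM in untreated libraries and from 75.3 to 83.0 CPM at 96 h, with 4 of 7 tested and CDH1 and ESRP1 at 0 counts throughout. The summed fibroblast markers also ran higher at 96 h, at 60350 to 66530 CPM, than in untreated cells, at 53470 to 56000 CPM. Most of that sum came from the matrix genes COL1A1 (15690 to 22850 CPM over the 14 libraries), FN1 (14860 to 21580) and COL1A2 (8470 to 11560). Summed endothelial markers were 39.7 to 46.0 CPM untreated and 38.5 to 43.6 CPM at 96 h (PECAM1 and CDH5 at 0), and summed blood markers 52.5 to 54.5 and 48.9 to 50.8 CPM (CD3E and HLA-DRA at 0). Most of each of the epithelial, endothelial and blood sums came from 1 gene. These were KRT18 (39.5 to 61.3 CPM over the 14 libraries), TEK (34 to 45.7 CPM) and CD68 (43.0 to 60.8 CPM). EPCAM, KDR and PTPRC reached at most 0.794, 0.256 and 0.252 CPM, so the sums do not measure the content of other cell types. The part of these markers in the results was not tested. The libraries also fell into 2 sets by an antisense index, the reads of genes opposite an abundant overlapping gene per 1000 reads of that gene, over 148 gene pairs. A set of 7 libraries (untreated, 24 h and 48 h replicates 1 and 2) lay at 0.493 to 0.600 per 1000, and the other 7 (48 h replicate 3, 72 h and 96 h) at 0.760 to 0.879 per 1000. For 72 h and 96 h against untreated or 24 h, treatment time and library set cannot be told apart except through 48 h replicate 3, while 24 h against untreated and 96 h against 72 h lie within a set. Nuclear RNA differed within groups, with MALAT1 at 52.1 to 409 CPM over the 14 libraries.

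The member calls over untreated cells were all at 96 h. At 24 h, 48 h and 72 h none of the 31 tested members passed edgeR's test at an adjusted p under 0.05, where 0%, 0.00748% and 0.179% of all 13371 tested genes did. limma-voom and DESeq2 also called 0 members at these times. At an unadjusted p under 0.05 there was 1 member at 24 h (3.42% of all genes), 5 at 48 h (6.01%) and 6 at 72 h (7.24%). At 96 h 7 members rose and none fell, namely ICAM1, CCL2, CXCL12, TNFAIP3, IL6, IL1B and IL11, whereas 5.68% of all genes were called, 3.57% higher and 2.11% lower. The median log2 fold change of the 31 members was 0.027, 0.002, 0.061 and 0.150 at 24, 48, 72 and 96 h, compared with medians of 0.005, 0.003, 0.004 and -0.004 over all genes. At 96 h 24 of the 31 members had a fold change above 0, beside 6579 of all 13371 tested genes. Of the 31 members, 16 had their highest group mean at that time, a count that was not taken over all genes. In bulk RNA, a change in the share of cells that express a gene and a change of its RNA per cell cannot be told apart. The libraries of 96 h lay wholly above both untreated libraries for 16 members and wholly below for 5, 21 in all, compared with 20.6% and 19.8% of all genes, 40.3% in all. With the library set as a term, none of the 7 calls was kept, and with untreated replicate 1 or replicate 2 left out, 1 and 2 members were called. Without 96 h replicate 1, 2 or 3 there were 4, 2 and 4, and limma-voom and DESeq2 each called 4. A fit restricted to the libraries of both groups called 9, with TNFRSF11B and PTGS2 added, and with a nuclear RNA covariate 10. The count over all genes, 759 in the main fit, moved between fits as well and is given in the last section. For limma-voom and DESeq2 it is not given here. A change in the count of members between fits is therefore not by itself a result about the members.

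**Figure D2:**
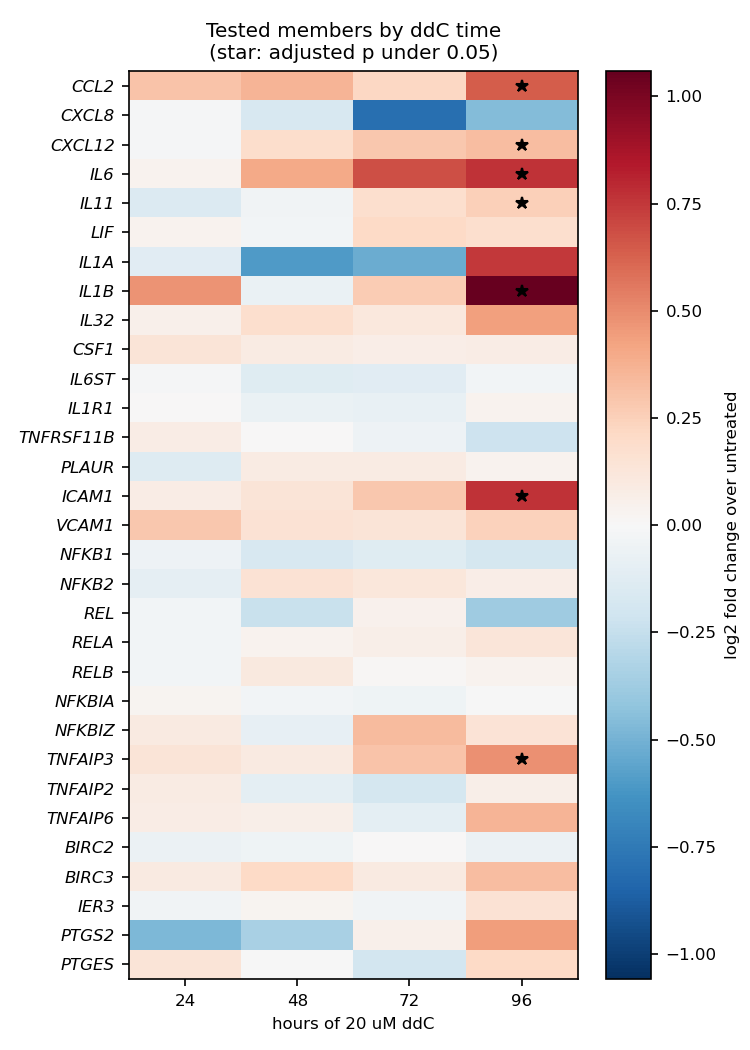
Fitted log2 fold change over untreated cells (colour) for the 31 tested members (rows, by role) at the 4 ddC times in hours (columns), with a star at an adjusted p under 0.05. All 7 stars stand in the 96 h column.

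**Figure D3:**
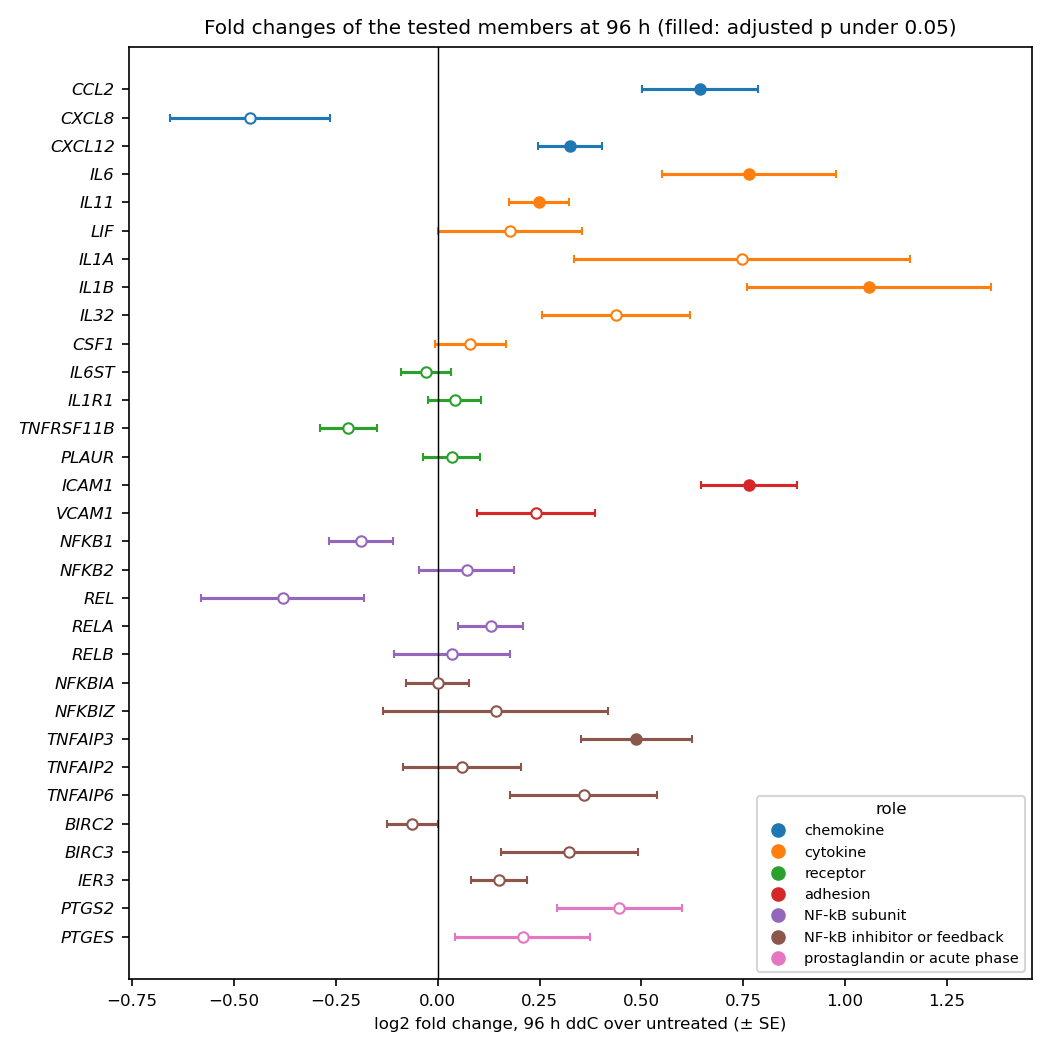
Fitted log2 fold change at 96 h over untreated cells with its standard error for the 31 tested members, coloured by role, filled where the adjusted p is under 0.05. The filled points run from 0.25 for IL11 to 1.06 for IL1B, and the 5 NF-kB subunits lie between -0.38 and 0.13.

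Among the chemokines, CCL2 and CXCL12 rose at 96 h while CXCL8 read lower without passing the test. CCL2 (hg19 chr17:32582296-32584220), which attracts monocytes, had 9.88 and 10.1 CPM in the untreated libraries and 13.8, 9.76 and 13.6 CPM at 24 h. It had 13.3, 12.05 and 13.2 CPM at 48 h, 11.6, 10.4 and 13.01 at 72 h and 16.2, 14.7 and 15.99 CPM at 96 h. All 3 libraries of 96 h lay above every other library of the study. The mean was 15.7 ± 0.824 CPM (SD, n = 3) at 96 h against 10.0 ± 0.180 (SD, n = 2) in untreated cells, a log2 fold change of 0.64 ± 0.14 (SE, adjusted p = 0.00885). The adjusted p became 0.101 without untreated replicate 1 and 0.0996 without replicate 2, and the fold change was 0.58 (adjusted p = 0.285) with the library set as a term.

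CXCL12 (hg19 chr10:44872510-44880545), the ligand of the receptor CXCR4 and the most abundant chemokine here, rose by a smaller factor over a high base. Its untreated libraries had 138 and 128 CPM and those of 24 h 146, 123 and 128 CPM. Later libraries had 153, 149 and 151 CPM at 48 h, 158, 149.9 and 178 at 72 h and 163, 175 and 161 CPM at 96 h. From 48 h on, every treated library lay above both untreated libraries. At 96 h the mean was 166.6 ± 7.62 CPM (SD, n = 3) against 132.9 ± 6.96 (SD, n = 2), a log2 fold change of 0.33 ± 0.08 (adjusted p = 0.0160). The call was lost without untreated replicate 1 (adjusted p = 0.0602), untreated replicate 2 (0.243) or 96 h replicate 2 (0.0598), and with the set as a term (0.32, adjusted p = 0.293).

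CXCL8, the neutrophil chemokine also known as interleukin 8, went the other way. It had 4.16 and 5.38 CPM in untreated libraries, 4.61, 4.16 and 5.39 at 24 h and 4.51, 3.99 and 4.21 CPM at 48 h. Libraries of 72 h had 2.72, 2.98 and 2.52 CPM and those of 96 h 2.94, 3.83 and 3.62 CPM, all below both untreated values. The log2 fold change was -0.80 ± 0.20 at 72 h (adjusted p = 0.144) and -0.46 ± 0.20 at 96 h (adjusted p = 0.188), so neither passed the test. CXCL8 was called at 72 h only when a nuclear RNA score (from MALAT1, NEAT1, MEG3 and KCNQ1OT1 on the log2 CPM scale) entered as a covariate (-0.78, adjusted p = 0.0405), as was CXCL12 (0.30, adjusted p = 0.00558).

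Of the cytokines, IL6, IL1B and IL11 rose at 96 h. All 7 tested cytokines had a fold change above 0 there, as did 6579 of all 13371 tested genes. IL6 (hg19 chr7:22766761-22771621), the main inducer of the acute phase response, was low, with 2.69 and 3.17 CPM untreated and 2.94, 3.43 and 2.65 CPM at 24 h. It had 3.32, 4.07 and 4.21 CPM at 48 h, 5.52, 4.18 and 4.42 at 72 h and 5.27, 5.57 and 4.12 CPM at 96 h. Every library from 48 h on lay above both untreated ones. The mean at 96 h was 4.99 ± 0.764 CPM (SD, n = 3) against 2.93 ± 0.344 (SD, n = 2), a log2 fold change of 0.76 ± 0.21 (adjusted p = 0.0380). At 72 h the fold change was 0.68 ± 0.22 (adjusted p = 0.323). The 96 h call was lost without untreated replicate 1 (adjusted p = 0.261), untreated replicate 2 (0.16), 96 h replicate 1 (0.109) or 96 h replicate 2 (0.112), in limma-voom (0.0578) and with the set as a term (0.58, adjusted p = 0.524). LOC541472, a gene on the strand opposite IL6, had 3 to 15 counts per library, and since the strand setting of the counting is not given in the sources used here, some reads may be shared.

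IL1B (hg19 chr2:113587337-113594356), the precursor of interleukin 1 beta, had the largest fold change of the called members. Its values were 2.52 and 2.12 CPM in untreated libraries, 1.68, 3.52 and 4.33 at 24 h and 2.12, 2.21 and 2.27 CPM at 48 h. They were 2.39, 3.07 and 2.95 CPM at 72 h and 3.37, 6.005 and 5.13 CPM at 96 h. The libraries of 96 h lay above the untreated ones, but 2 of the 24 h libraries exceeded the lowest of them. The mean was 4.84 ± 1.34 CPM (SD, n = 3) against 2.32 ± 0.282 (SD, n = 2), a log2 fold change of 1.06 ± 0.30 (adjusted p = 0.0400). Without untreated replicate 1, untreated replicate 2, 96 h replicate 2 or 96 h replicate 3 the adjusted p was 0.148, 0.312, 0.134 and 0.123, without 48 h replicate 3 or 72 h replicate 2 it was 0.0512 and 0.0511, and in limma-voom 0.0925. With the set as a term the fold change was 0.99 (adjusted p = 0.469).

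IL11 (hg19 chr19:55875750-55881831), an IL6-family cytokine that acts on fibroblasts themselves, was the most abundant cytokine per length. It had 84.8 and 79 CPM untreated, 74.1, 74.8 and 73.3 at 24 h and 86.4, 75.9 and 77.8 CPM at 48 h. It then had 91.6, 87.1 and 99.3 CPM at 72 h and 93.7, 95.7 and 103 CPM at 96 h. The 24 h libraries lay below both untreated libraries, and those of 72 h and 96 h above them. The 96 h mean was 97.3 ± 4.71 CPM (SD, n = 3) against 81.9 ± 4.10 (SD, n = 2), a log2 fold change of 0.25 ± 0.07 whose adjusted p of 0.0486 was barely past the threshold. It was lost without untreated replicates 1 or 2 (0.113 and 0.385), 24 h replicate 1 (0.0533), 48 h replicate 3 (0.0553), 72 h replicates 1 or 2 (0.0595 and 0.0507) or 96 h replicates 1, 2 or 3 (0.0702, 0.067 and 0.179), in limma-voom (0.0577) and with the set as a term (0.31, adjusted p = 0.275).

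LIF, an IL6-family cytokine that maintains stem cells and signals through STAT3, did not pass the test at any time. Its libraries had 78.1 and 99.99 CPM untreated, 91.4, 108 and 74.4 at 24 h, 76.6, 99.1 and 86.2 at 48 h, 109.7, 111 and 87.4 at 72 h and 109, 93.6 and 99.1 CPM at 96 h. IL32, a cytokine that induces other inflammatory cytokines, had 7.11 and 8.02 CPM untreated, 7.86, 6.41 and 9.27 at 24 h, 10.96, 7.98 and 6.80 at 48 h, 7.90, 7.42 and 9.19 at 72 h and 10.5, 9.92 and 10.3 CPM at 96 h. The 96 h libraries of IL32 exceeded both untreated ones, with a log2 fold change of 0.44 ± 0.18 (adjusted p = 0.177), and 0.91 (adjusted p = 0.153) with the library set as a term. CSF1, the growth factor of macrophages, overlapped between groups, with 54.9 and 62.4 CPM untreated and 65.9, 65.5 and 61.6 CPM at 24 h. Its later values were 61.7, 67.6 and 57.8 CPM at 48 h, 59.4, 61.4 and 63.99 at 72 h and 65.3, 55.3 and 65.4 CPM at 96 h. IL1A, the alarmin interleukin 1 alpha, ran from 0.243 to 2.52 CPM with all 3 libraries of 96 h on top, and its fold change was 0.75 ± 0.41 over untreated (adjusted p = 0.329) and 1.27 ± 0.39 over 72 h (adjusted p = 0.177). With the set as a term the fold change of IL1A over untreated was 2.88 (adjusted p = 0.106). The set term is estimated only from 48 h replicate 3 against 48 h replicates 1 and 2. IL1A had 3 counts in that library against 10 and 15, and IL32 had 6.80 CPM against 10.96 and 7.98. Both set-term values therefore extrapolate from 1 library, which for IL1A is near the floor.

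The receptors had the smallest changes of the 7 roles at 96 h, with a median absolute log2 fold change over untreated of 0.04. None of the 4 was called there, beside 5.68% of all tested genes. IL6ST, the gp130 subunit shared by receptors of the IL6 family, had 651 and 608 CPM untreated, 597, 631 and 648 at 24 h and 569.7, 553 and 602 CPM at 48 h. It had 582, 599.5 and 554 CPM at 72 h and 616, 649 and 586 CPM at 96 h, and its groups overlapped at 96 h (log2 fold change -0.03 ± 0.06, adjusted p = 0.847). IL1R1, the signalling receptor of interleukin 1, ran from 58.6 to 67.5 CPM over the study and differed by 0.04 ± 0.07 at 96 h (adjusted p = 0.790). PLAUR had 144 and 146 CPM untreated, 133, 133 and 130.5 at 24 h, 168, 145 and 149 at 48 h, 151, 149 and 162 at 72 h and 141, 146 and 159 CPM at 96 h. Its 24 h libraries lay below all others (-0.13 ± 0.07, adjusted p = 0.999), and it read 0.03 ± 0.07 at 96 h (adjusted p = 0.840).

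TNFRSF11B, or osteoprotegerin, a secreted decoy receptor for RANKL, was lower at 96 h than at 24 h. It had 133 and 126 CPM untreated, 140.4, 128 and 139.8 at 24 h and 134, 119 and 135 CPM at 48 h. It had 117, 131 and 126 CPM at 72 h and 108, 112 and 112 CPM at 96 h, where all libraries lay below those of every other group. The mean fell from 136.2 CPM at 24 h to 110.9 CPM at 96 h, a log2 fold change of -0.30 ± 0.06 (adjusted p = 0.00832), and against untreated the change was -0.22 ± 0.07 (adjusted p = 0.0676), or with only the 2 groups in the fit -0.22 (adjusted p = 0.0154). The call between 96 h and 24 h was lost without 96 h replicate 1 (adjusted p = 0.0616) and with the set as a term (-0.38, adjusted p = 0.198).

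ICAM1 (hg19 chr19:10381517-10397291), a cell-surface ligand of leukocyte integrins, changed with the smallest p of all members. Untreated libraries had 17.3 and 18.96 CPM, 24 h libraries 17.3, 19.6 and 20.6 CPM and 48 h libraries 16.5, 22.7 and 20.4 CPM. The 72 h libraries had 21.8, 21.5 and 22.98 CPM and those of 96 h 33.4, 28.7 and 30.3 CPM. The step from 72 h to 96 h left a gap, since the lowest 96 h library was above every library of the other groups. The mean rose from 18.2 ± 1.14 CPM (SD, n = 2) to 30.8 ± 2.41 (SD, n = 3), a log2 fold change of 0.76 ± 0.12 (adjusted p = 0.000376). The call was kept in 21 of 22 alternative fits, with an adjusted p of at most 0.0194 when any library was left out, and lost with the set as a term (0.71, adjusted p = 0.106). Between 96 h and 72 h, both within the higher set, the log2 fold change was 0.48 ± 0.10 (adjusted p = 0.0309), and ICAM1 was the 1 member called there, where 0.516% of all genes were. Since both times lie in the same set, a set term cannot move this fold change. That fit (adjusted p = 0.0383) is therefore no check of the call. The call was lost without 72 h replicate 1 (0.178), 72 h replicate 2 (0.16) or 96 h replicates 1, 2 or 3 (0.188, 0.0572 and 0.112). Without 72 h replicate 3, IER3 was called there too (0.25, adjusted p = 0.0498). VCAM1, the other adhesion molecule, ran from 8.40 to 11.4 CPM with a fold change of 0.24 ± 0.15 at 96 h (adjusted p = 0.378). The difference between the 2 adhesion genes was not tested.

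**Figure D4:**
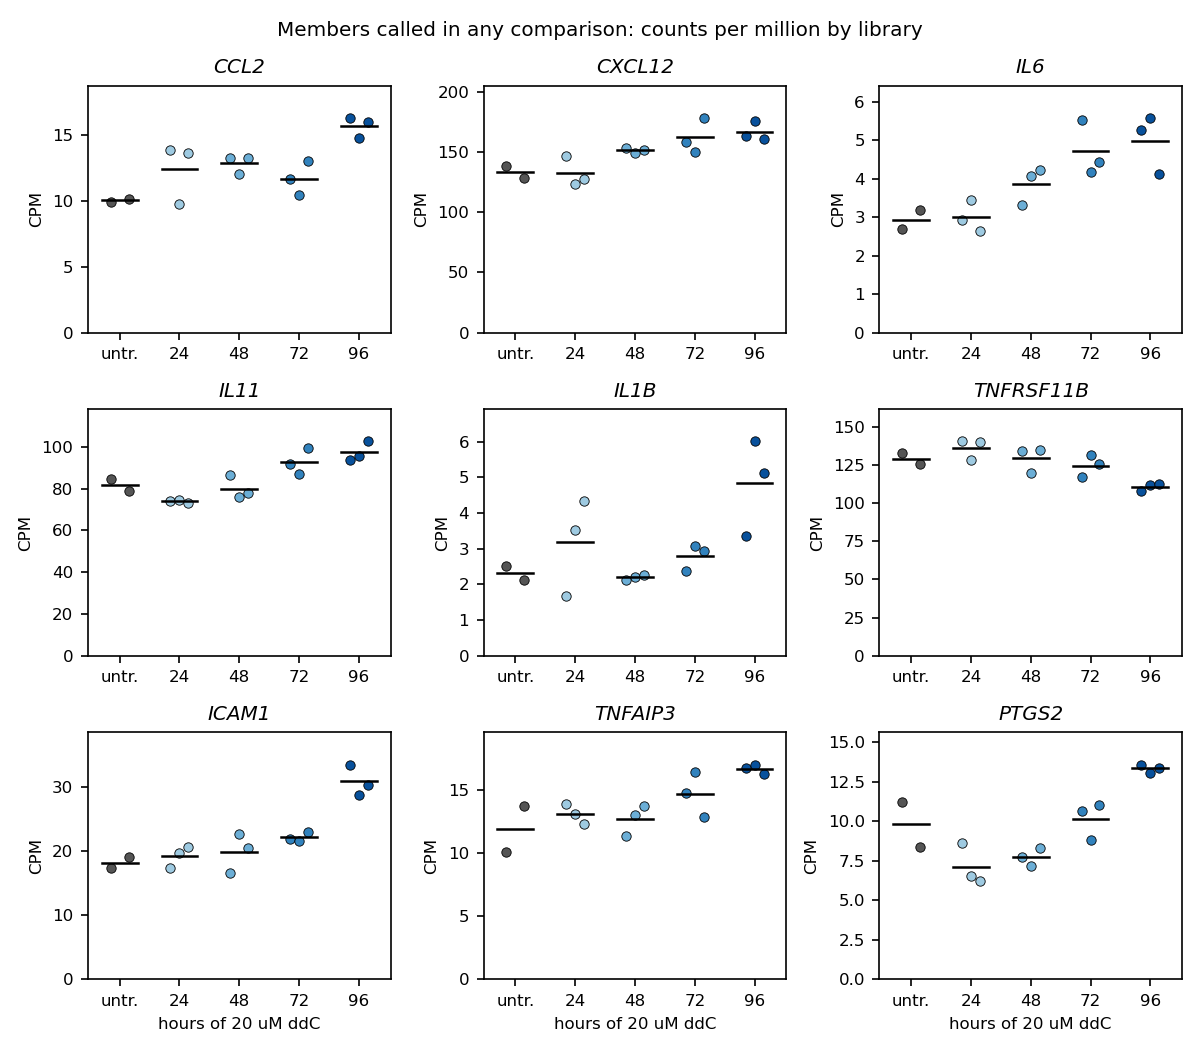
CPM in each library (points) and group mean (bar) for the 9 members called in at least 1 comparison, for untreated cells and 24, 48, 72 and 96 h of ddC. ICAM1 at 96 h lies at 28.7 to 33.4 CPM, above all other libraries, and TNFRSF11B at 96 h lies below all others.

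None of the 5 NF-kB subunits passed the test in any comparison, where between 0% and 5.68% of all tested genes did. RELA, the transactivating subunit p65, had 85.2 and 89.4 CPM untreated, 80.9, 91.05 and 84.3 at 24 h and 91.6, 93.6 and 83.8 CPM at 48 h. It had 85.96, 85.8 and 102 CPM at 72 h and 96.7, 90.7 and 99.3 CPM at 96 h (log2 fold change 0.13 ± 0.08, adjusted p = 0.385). NFKB1, which encodes p105 and its product p50, read slightly lower, with 46.1 and 43.9 CPM untreated, 44.1, 43.1 and 43.3 at 24 h, 41.7, 41.1 and 37.4 at 48 h, 42.9, 42.6 and 38.3 at 72 h and 41.3, 40.1 and 37.1 CPM at 96 h. All of its 48 h, 72 h and 96 h libraries were below both untreated ones, and the change at 96 h was -0.19 ± 0.08 (adjusted p = 0.182). LOC105377621, on the strand opposite NFKB1, had at most 5 counts in a library. NFKB2, the p100 precursor of the alternative pathway, ran from 25.1 to 38.0 CPM, its partner RELB from 8.83 to 12.3 CPM and the lymphoid subunit REL from 4.63 to 8.65 CPM. Their 96 h changes were 0.07 ± 0.12, 0.04 ± 0.14 and -0.38 ± 0.20 (adjusted p = 0.798, 0.922 and 0.302). With the set as a term the changes of RELA, NFKB1 and RELB were 0.28, -0.04 and 0.46 (adjusted p = 0.367, 0.929 and 0.350).

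Among the 8 genes grouped as inhibitors, feedback genes, targets or regulators of NF-kB, only TNFAIP3 was called. This was at 96 h over untreated, where 5.68% of all tested genes were called. TNFAIP3 (hg19 chr6:138188325-138204451) encodes A20, a ubiquitin-editing enzyme that shuts down NF-kB signalling and is itself induced by it. It had 10.1 and 13.7 CPM untreated, 13.8, 13.1 and 12.3 at 24 h, 11.3, 12.99 and 13.7 at 48 h, 14.7, 16.4 and 12.8 at 72 h and 16.7, 16.97 and 16.2 CPM at 96 h. The 96 h libraries lay close together above both untreated ones, which differed more from each other, and 72 h replicate 2 reached their range. The mean was 16.6 ± 0.369 CPM (SD, n = 3) against 11.9 ± 2.55 (SD, n = 2), a log2 fold change of 0.49 ± 0.14 (adjusted p = 0.0372). It rested on the untreated libraries: the fold change was 0.28 (adjusted p = 0.414) without untreated replicate 1 and 0.72 without untreated replicate 2. The call was also lost without 72 h replicate 1 (0.0518) or 96 h replicates 1, 2 or 3 (0.0907, 0.0884 and 0.0893), in DESeq2 (0.0561) and with the set as a term (0.32, adjusted p = 0.607).

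NFKBIA, the inhibitor IkB alpha that NF-kB induces within its main feedback loop, was not called in any comparison. It had 47.9 and 48.9 CPM untreated, 49.9, 47.3 and 50.7 at 24 h, 47.1, 48.97 and 46.3 at 48 h, 44.8, 47.9 and 48.4 at 72 h and 47.3, 45.2 and 52.7 CPM at 96 h. The groups overlapped throughout, and the 96 h fold change was -0.00 ± 0.08 (adjusted p = 0.997). Its promoter stretch above carries GGAAATTCCC. IER3, an immediate early survival gene, had 92.8 and 93.02 CPM untreated, 92.04, 91.3 and 88.6 at 24 h, 99.3, 94.8 and 89.8 at 48 h, 84.3, 89.6 and 97.98 at 72 h and 108, 99.9 and 101 CPM at 96 h. Its 96 h libraries lay above all others, with a change of 0.15 ± 0.07 (adjusted p = 0.231). BIRC2, the ubiquitin ligase cIAP1, had 182 and 181 CPM untreated, 185, 162 and 176 at 24 h, 173, 174 and 181 at 48 h, 182, 185 and 179 at 72 h and 178, 178 and 165 CPM at 96 h. It showed -0.06 ± 0.06 at 96 h (adjusted p = 0.628), and its relative BIRC3, which ran from 6.41 to 9.59 CPM, showed 0.32 ± 0.17 (adjusted p = 0.296). TNFAIP6, a hyaluronan-binding secreted protein, ran from 5.27 to 9.14 CPM (0.36 ± 0.18 at 96 h, adjusted p = 0.281). TNFAIP2 ran from 7.80 to 11.5 CPM (0.06 ± 0.14, adjusted p = 0.870), and NFKBIZ, a nuclear IkB protein that helps induce IL6, from 17.1 to 35.8 CPM (0.14 ± 0.28, adjusted p = 0.835).

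PTGS2 (hg19 chr1:186640944-186649559), the inducible cyclooxygenase COX-2, was lowest at 24 h and highest at 96 h. It had 11.2 and 8.38 CPM untreated, 8.60, 6.50 and 6.18 at 24 h and 7.74, 7.13 and 8.26 CPM at 48 h. It had 10.6, 8.79 and 11.01 CPM at 72 h and 13.6, 13.1 and 13.4 CPM at 96 h, where the libraries lay above all others. Against untreated the log2 fold change was -0.47 ± 0.16 at 24 h (adjusted p = 0.999) and 0.45 ± 0.15 at 96 h (adjusted p = 0.0923), and neither passed. With only the 96 h and untreated libraries in the fit PTGS2 was called (0.45, adjusted p = 0.0301), and with the set as a term it read 0.29 (adjusted p = 0.699). Between 24 h and 96 h the mean rose from 7.09 to 13.3 CPM, a log2 fold change of 0.92 ± 0.14 (adjusted p = 0.000475) that was kept when any library was left out and lost with the set as a term (0.77, adjusted p = 0.306). PTGES, the prostaglandin E synthase downstream of COX-2, ran from 6.51 to 11.2 CPM, with a 96 h change of 0.21 ± 0.17 over untreated (adjusted p = 0.524).

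Compared with 24 h rather than with untreated cells, which avoids the 2 untreated libraries, 6 of the 31 members changed at 96 h, 5 higher and 1 lower, whereas 3.2% of all genes were called, 2.58% higher and 0.621% lower. The rises were PTGS2 (above), ICAM1 at 0.68 ± 0.10 (adjusted p = 0.000392), IL11 at 0.39 ± 0.07 (0.000853), CXCL12 at 0.33 ± 0.07 (0.00796) and IL6 at 0.73 ± 0.19 (0.0381), and the fall was TNFRSF11B. IL6 lost this call without 24 h replicate 1 (adjusted p = 0.126), 24 h replicate 3 (0.108), 96 h replicate 1 (0.143) or 96 h replicate 2 (0.141), with only the compared groups (0.0715), and in limma-voom (0.0592) and DESeq2 (0.12). CCL2, IL1B and TNFAIP3 were not called against 24 h, at 0.34 ± 0.12, 0.58 ± 0.25 and 0.35 ± 0.12 (adjusted p = 0.161, 0.263 and 0.132). The comparisons at 96 h share their 96 h libraries and are not independent of each other. The untreated libraries form 1 group and are not matched to each treated time. Hours of ddC and day in culture therefore cannot be told apart between 24 h and 96 h. The joint test of the 4 ddC times against untreated, which has no direction, called ICAM1 (adjusted p = 0.000415), PTGS2 (0.00162), IL11 (0.0028) and CXCL12 (0.0124), 4 of the 31, whereas 3.25% of all genes were called. Without 24 h replicate 2 it called 7, with CCL2, CXCL8 and TNFRSF11B added. With the set as a term, none of the 6 calls against 24 h and none of the 4 joint calls was kept.

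The wider pathway was read from 3 further lists. Of 56 genes that act upstream in NF-kB signalling or regulate it, 51 were tested and 2 were called at 96 h over untreated, 1 higher and 1 lower, where 5.68% of all tested genes were called, 3.57% higher and 2.11% lower. The list median was 0.05 on the log2 scale. TNIP1, which binds A20 and helps it restrain NF-kB, rose from 96.9 ± 2.20 CPM (SD, n = 2) to 120.8 ± 5.70 (SD, n = 3), by 0.32 ± 0.07 (adjusted p = 0.00577). USP7, a deubiquitinase, fell from 155.6 to 131.7 CPM, a change of -0.24 ± 0.07 (adjusted p = 0.0484). TNIP1 lost its call without untreated replicate 1 (0.0504) or replicate 2 (0.119), and both lost it with the set as a term (0.121 and 0.206). USP7 kept its call in 4 of the 14 fits that left out 1 library and lost it without untreated replicate 1 or 2 (0.192 and 0.276), 24 h replicate 1 (0.0554), any of the 3 libraries of 48 h (0.0554, 0.0579 and 0.0521), 72 h replicate 1 (0.0623), any of those of 96 h (0.114, 0.0659 and 0.172) in limma-voom (0.0584) and with a replicate block (0.0793).

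A second list held 63 other NF-kB targets and secreted inflammatory genes, of which 36 were tested, 6 rose and 4 fell at 96 h over untreated, with a median of 0.02 (all tested genes: 3.57% higher, 2.11% lower, median -0.004). HGF, hepatocyte growth factor, fell from 74.5 ± 0.913 CPM (SD, n = 2) to 53.7 ± 0.476 (SD, n = 3), a log2 fold change of -0.47 ± 0.07 (adjusted p = 0.000391), and had already fallen at 72 h (-0.39 ± 0.07, adjusted p = 0.0245). The 72 h call was lost without untreated replicates 1 or 2 (0.39 and 0.368) or 72 h replicates 1 or 3 (0.122 and 0.111), with only the compared groups (0.208) and with the set as a term (0.541). F3, tissue factor, rose from 221.2 to 295.4 CPM (0.42 ± 0.07, adjusted p = 0.000599), and GADD45B, a stress-induced gene, from 33.5 to 46.7 CPM (0.48 ± 0.08, adjusted p = 0.000753). HAS2, the hyaluronan synthase, rose from 73.1 to 96.4 CPM (0.40 ± 0.08, adjusted p = 0.00587), and BCL2L1, the survival gene BCL-XL, from 70.3 to 88.3 CPM (0.33 ± 0.08, adjusted p = 0.0115). MMP3, the matrix protease stromelysin, fell from 4.81 to 2.23 CPM (-1.10 ± 0.24, adjusted p = 0.00744). HAS2 and BCL2L1 lost their calls without untreated replicate 2 (0.24 on the log2 scale with adjusted p = 0.245, and 0.27 with 0.21), and MMP3 without untreated replicate 1 (0.0769) or replicate 2 (0.0671). HGF kept its 96 h call in all 22 alternative fits, including that with the set as a term (-0.53, adjusted p = 0.0483), while the other 5 lost theirs in that fit. The set term is estimated only from 48 h replicate 3 against 48 h replicates 1 and 2. Its values for these 6 genes therefore extrapolate from 1 library.

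The third list held 25 genes of the IL6-family receptors and the JAK-STAT3 arm that they drive, of which 23 were tested, 4 rose and 1 fell at 96 h over untreated, beside the same 3.57% and 2.11% of all tested genes, with a median of 0.06. CEBPD, a transcription factor of the acute phase response, rose from 30.5 ± 1.49 CPM (SD, n = 2) to 52.3 ± 5.89 (SD, n = 3), a log2 fold change of 0.78 ± 0.11 (adjusted p = 0.000276). Its call was kept in all 22 alternative fits, with the set as a term too (1.04, adjusted p = 0.00801). That set-term value again extrapolates from 48 h replicate 3, the only library that separates set from time. CEBPD was also higher at 96 h than at 72 h (0.45 ± 0.10, adjusted p = 0.0396), a call lost without 72 h replicate 1 or 2 (0.231 and 0.234), 96 h replicates 1, 2 or 3 (0.0511, 0.148 and 0.177) and in limma-voom (0.0634). PIM1, a kinase gene induced by STAT3, rose from 26.4 to 33.5 CPM (0.35 ± 0.10, adjusted p = 0.0355), and IL11RA, the IL11 receptor, from 10.9 to 15.1 CPM (0.47 ± 0.13, adjusted p = 0.0387). IL6R, the IL6 receptor, fell from 10.2 to 6.88 CPM (-0.57 ± 0.16, adjusted p = 0.0335). The calls of PIM1, IL11RA and IL6R were lost without untreated replicate 1 (adjusted p = 0.0914, 0.316 and 0.174 in that order), without untreated replicate 2 (0.377, 0.117 and 0.193), without 96 h replicate 1 (0.119, 0.101 and 0.119) and with the set as a term. IL11RA and IL6R also lost them without 96 h replicate 2 (0.0571 and 0.112), PIM1 and IL11RA without 96 h replicate 3 (0.138 and 0.119) and PIM1 without 72 h replicate 1 (0.051). In DESeq2 none of these 3 was called (0.0518, 0.0672 and 0.0664), IL11RA was not called in limma-voom (0.0513), and IL6R was not called with a replicate block (0.0562).

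Some members varied within groups in step with nuclear RNA. NFKBIZ, LIF, NFKB2 and TNFAIP2 were lowest, in each of the 5 groups, in the library with the least MALAT1, a nuclear-retained noncoding RNA. This held for 4 of the 31 members and for 6.4% of 13370 genes. TNFAIP6 was highest in that library in all 5 groups, as were 5.12% of genes. NFKBIZ had 20.3 and 26.9 CPM untreated, 25.9, 30.4 and 19.2 at 24 h, 17.1, 27.8 and 21.3 at 48 h, 35.8, 32.2 and 20.8 at 72 h and 26.6, 24.02 and 27.4 CPM at 96 h, and its range within 24 h, within 48 h and within 72 h exceeded the largest difference between group means. These genes were picked once their values were known. With the nuclear score in the model, LIF was called at 96 h over untreated (0.25, adjusted p = 0.00306), as were TNFRSF11B (-0.23, adjusted p = 0.00435) and PTGS2 (0.43, adjusted p = 0.0316), and the 7 calls of the fit without it were kept. ICAM1 was lowest at the least MALAT1 in 3 of the 5 groups, and its 96 h libraries were highest at 77.3 to 193.6 CPM of MALAT1, within the range of the other groups.

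**Figure D5:**
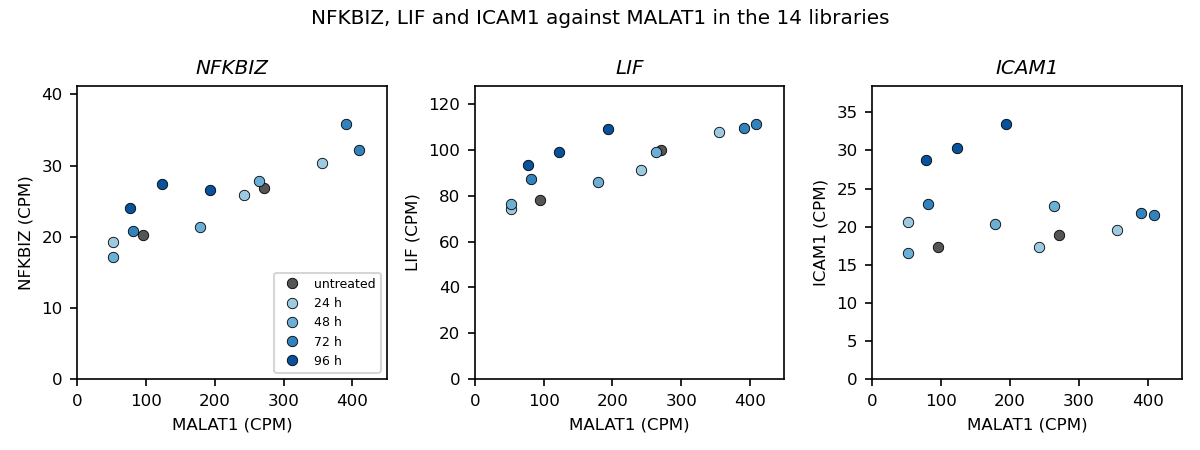
NFKBIZ, LIF and ICAM1 in CPM (vertical axes) against MALAT1 in CPM (horizontal axes), 1 point per library, coloured by group. NFKBIZ and LIF are lowest within each group at the least MALAT1, and the 3 ICAM1 points of 96 h lie above all others at 28.7 to 33.4 CPM.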

How the data were processed

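Polyadenylated RNA of IMR90 cells was made into stranded libraries, as the labels' protocols state. The submitters' processing notes name STAR 2.5.3a, HOMER and hg19, and the strand setting is not given in the sources used here. The deposited table holds the authors' raw counts per gene for 14 libraries, each joined to its sample by title.

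Counts were tested with edgeR 4.0.16 in R 4.3.3 after filterByExpr (counts of at least 10, totals of at least 15), which kept 13371 of 27142 genes. TMM factors lay between 0.971 and 1.02. The robust quasi-likelihood model held a mean for each group and all 14 libraries. Tests were two-sided, adjusted by Benjamini-Hochberg over all tested genes, and called at an adjusted p under 0.05. CPM are counts per 1000000 of the TMM-scaled total, and the SE is the log2 fold change over the square root of F. Alternatives were DESeq2 1.42.0, limma-voom (limma 3.58.1), other size factors, no filter, only the compared groups, covariates, a replicate block and leaving out each library.

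The members and lists were chosen with earlier results of these data known. Values per library are given for called members, for the 12 members highest per length and for members whose 96 h libraries lay on 1 side of both untreated ones at an unadjusted p under 0.05, and at most the 6 genes with the smallest p are named per pathway list, except a gene that is not reported here. The fit was tested on simulated counts. No pair of replicates agreed within sampling noise.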

Additional observations from a re-analysis of the deposited data

Results flagged for a closer look

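Between treated times, the level differed for 6 members. From 24 h to 96 h the log2 fold change was 0.92 for PTGS2, 0.68 for ICAM1, 0.73 for IL6, 0.39 for IL11, 0.33 for CXCL12 and -0.30 for TNFRSF11B. None of these 6 calls was kept with the library set as a term. From 72 h to 96 h the log2 fold change was 0.48 for ICAM1. The untreated libraries form 1 group, so hours of ddC and day in culture cannot be told apart between treated times. Each of these is the tested difference of the 2 times in edgeR's fit, at an adjusted p under 0.05. PTGS2 stands out since its 24 h mean of 7.09 CPM lay below the untreated mean and its 96 h mean of 13.3 CPM above it, with no call against untreated at either time.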

How the results depend on the processing

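Of the 721 recomputed values of called genes, 592 kept their call, 129 lost it and 0 changed sign. The 721 include values of the joint test, which has no direction and so could not change sign. Members called at 96 h over untreated numbered 7, 10 with the nuclear RNA covariate, 9 with only the compared groups, 0 under the library set term, 4 in limma-voom, 4 in DESeq2, and 1 to 7 with 1 library left out. All genes called there numbered 759, and 1848 (971 higher, 877 lower) with the nuclear RNA covariate, 121 (96 and 25) with the set term, 1646 (903 and 743) with only the compared groups, and 174 to 1034 with 1 library left out. At 24 h 0 genes were called, and 1 with no filter, with the nuclear covariate and in DESeq2 (0 to 1 leaving out a library). At 48 h 1 gene was called, 3 with no filter, 34 with the nuclear covariate, 2 with the set term, 0 within the lower set, 0 in limma-voom and 0 to 2 leaving out a library. At 72 h 24 genes were called, 47 with no filter, 240 with the nuclear covariate (2 members), 0 with the set term, 7 with only the compared groups, 57 in DESeq2 and 1 to 35 leaving out a library. For 96 h over 24 h, 428 genes became 1086 with the nuclear covariate, 37 with the set term (0 of 6 members) and 223 to 545 leaving out a library. For 96 h over 72 h, 69 became 117 with no filter, 254 with the nuclear covariate (2 members), 127 in DESeq2 and 5 to 243 leaving out a library (0 to 2 members, against 1). The joint test called 435 genes and 4 members, 9 members with no filter, 1350 genes and 13 members with the nuclear covariate, 91 genes and 0 members with the set term, and 223 to 583 genes and 4 to 7 members leaving out a library. The cause was not tested. Deviations from the group means correlated at -0.361 to 0.611 between same-numbered libraries (median -0.0293, 11 of 26 over 0.1). Between differently numbered libraries they correlated at -0.489 to 0.512 (median 0.042, 18 of 52 over 0.1), so the numbers were not taken as pairs. With the replicate block, 6 members were called at 96 h over untreated (IL11 at adjusted p = 0.0705) and the joint test called 6. Fits within 1 set could not be made for 72 h or 96 h over untreated. At 0.243 to 6.005 CPM, counting limits IL6, IL1A, IL1B and CXCL8. DESeq2 gave no adjusted p for IL6, IL1B and MMP3 at 96 h over untreated.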
